A study of Mus musculus with 2 samples.

Results

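Capillary endothelial cells marked by Car4, Timp4 and Aqp7 were examined in single cell RNA-seq libraries from the hearts of mice at postnatal day 1 (P1) and postnatal day 7 (P7). Members were chosen by a rule on unique molecular identifiers (UMIs, random tags by which copies of one mRNA are counted as 1). A cell passed the endothelial gate with at least 3 UMIs of Pecam1, Cdh5 and Egfl7 together and with no UMI of Ptprc or Pdgfra. It was a member when at least 2 of Car4, Timp4, Aqp7 and Rbp7 were detected, and when more of these 4 genes were detected than of any other list in the rule. Those lists were Aplnr, Apln, C1qtnf9 and Pcdh17 for an angiogenic capillary type, Gja5, Sema3g, Hey1 and Stmn2 for arteries, Npr3, Cytl1, Tmem108 and Plvap for endocardium, and Prox1, Mmrn1, Reln and Ccl21a for lymphatics. The rule found 1250 members among 13502 kept cells and among 5117 cells of the endothelial gate, with 628 members at P1 and 622 at P7.

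The study compared the neonatal heart at these ages. For each age 3 littermate hearts were combined and digested with Collagenase II, which lasted 20 min at P1 and 45 min at P7. Red blood cells were lysed and live cells were sorted with 7-AAD, a dye that enters dead cells. The hearts were intact, and the labels name no genotype, strain or treatment for them. With 1 library per age there was no replicate, so no test between ages was possible, and all intervals below are 95% intervals that cover counting error only. Age, litter, digestion time and library cannot be told apart. Neither can sex, because the P1 members carried 5904 UMIs of Xist and none of 4 Y-linked genes, whereas the P7 members carried 994 UMIs of those Y-linked genes and none of Xist.

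The myocardium takes much of its energy from fatty acids, and capillary endothelium is the layer these must cross. Lipoprotein lipase, held on the capillary wall by GPIHBP1, releases fatty acids from circulating lipoproteins, CD36 takes them up, and binding proteins such as FABP4 carry them within the cell. The nuclear receptor PPAR gamma switches on several of these genes in endothelium, and the transcription factors MEOX2 and TCF15 act as a pair on Cd36 and other uptake genes in heart capillaries.

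The P1 file held 7836 barcodes with 63585504 UMIs and the P7 file 9077 barcodes with 98346195 UMIs, of which 4991 and 8511 cells were kept. Members had a median of 8989.5 UMIs and 2905 genes per cell at P1, and of 6883 UMIs and 2582.5 genes per cell at P7. The values below rest on 6304383 UMIs summed over members at P1 and 4688349 at P7. The files shared 18 barcode sequences, of which 13 were kept in both files and none was a member in both.

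Members were a larger part of the recovered endothelium at P1. They were 36.5% of the 1722 cells in the endothelial gate at P1 (34.2 to 38.8%) and 18.3% of the 3395 cells at P7 (17.0 to 19.7%). The Aplnr/Apln gate, built in the same way from its own list, had the opposite order, with 17.6% at P1 and 44.7% at P7. The 2 lists compete in the rule, so the opposite order is not a separate observation. Over the whole endothelial gate the levels of Car4, Timp4 and Rbp7 were higher at P1. Those of Aqp7 and of the genes in the Aplnr list were higher at P7. A difference in level of the rule genes alone would move these shares, and level and number of cells were not told apart. When each cell was thinned to 2000 UMIs before the rule was applied, members made up 36.8% at P1 and 18.9% at P7. That step left out 574 kept cells at P1 and 727 at P7, and 439 of the 547 thinned members at P1 and 328 of the 563 at P7 were also members before thinning. The shares moved with ties. Counting also the cells in which the Aplnr list equalled the Car4 list gave 46.5% and 35.2%.

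Detection of the markers of the label is given for members and for other cells. The rule chose the members on Car4, Timp4, Aqp7 and Rbp7, so the levels of these genes are given as a description. Car4, a carbonic anhydrase anchored on the capillary surface, was detected in 88.2% of members at P1 and 84.9% at P7. In the cells of a fibroblast gate (Pdgfra and Col1a1 present, no endothelial UMI), where it should be lacking, 1.50% and 1.15% had a UMI of it. The median depth of fibroblasts was 14432.5 UMIs at P1 and 16464 at P7. Cd36, which was not in the rule, was detected in 99.2% and 96.5% of members, in 85.9% and 90.9% of other endothelial cells and in 13.4% and 12.3% of fibroblasts. All 20 genes of a list of general endothelial genes were detected in members of both libraries, with a summed level of 8282 counts per 1e6 UMIs (CPM) at P1 and 8745 CPM at P7, against 634 and 625 CPM in cells outside the gate.

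**Figure D1:**
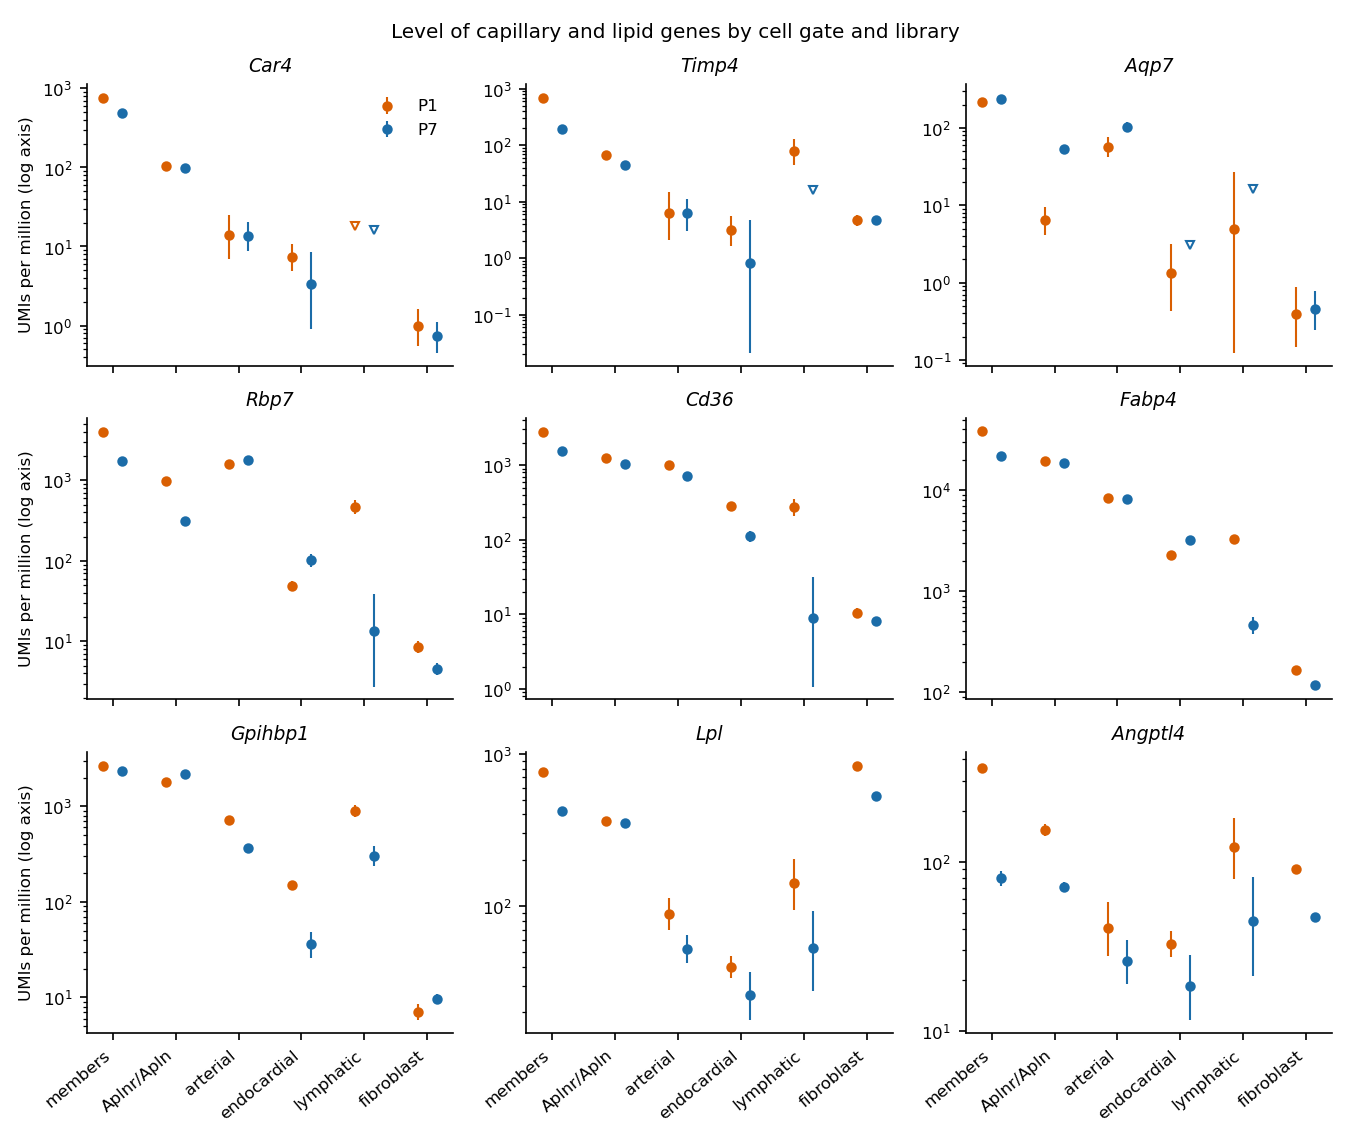
Level of 9 genes (CPM, log axis) in members, in the Aplnr/Apln, arterial, endocardial and lymphatic gates and in fibroblasts, at P1 (orange) and P7 (blue). Points are sums over cells, bars are 95% Poisson intervals, and open triangles mark the upper limit where no UMI was found. Lpl was higher in fibroblasts (829 and 529.9 CPM) than in members (762 and 423 CPM) at both ages, and Cd36 was low in fibroblasts (10.4 and 8.03 CPM).

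Timp4, an inhibitor of matrix metalloproteinases, differed most between ages among the 4 genes of the Car4 list. Its level in members was 687 CPM at P1 (667 to 708) and 192 CPM at P7 (179 to 205), which gave 1.84 (1.74 to 1.95) as the log2 ratio of P1 over P7. Positive log2 ratios mean a higher level at P1 throughout, and 0.5 counts were added to each sum. Rbp7, a cellular retinol binding protein, stood at 4022 CPM at P1 (3972 to 4071) and 1719 CPM at P7 (1681 to 1756), and its log2 ratio was 1.23 (1.19 to 1.26). Car4 stood at 751 CPM at P1 (729.7 to 773) and 489.5 CPM at P7 (469.7 to 510.0), and its log2 ratio was 0.62 (0.55 to 0.69). Aqp7, a channel for glycerol and water, was nearly level between ages, with 217 CPM at P1 (206 to 229) and 235 CPM at P7 (221 to 249) and a log2 ratio of -0.11 (-0.23 to 0.00). In the other cells of the gate Aqp7 was lower at P1, at 23.7 CPM against 75.9 CPM at P7.

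These genes lie far apart in the genome (GRCm38, GENCODE M21 annotation). Car4 is at chr11:84957786-84966044 on the plus strand, Timp4 at chr6:115241892-115252205, Aqp7 at chr4:41033074-41048139, Rbp7 at chr4:149449687-149454978 and Cd36 at chr5:17781690-17888801, these 4 on the minus strand. Promoters of those with a motif match are printed from RefSeq (GRCm38.p6, 250 bases before to 50 after a start site, in the direction of the gene), because the choice of members rests on the rule genes and Cd36 is the lipid receptor followed through the results. Capitals mark matches to motifs that were searched on both strands. AGGTCA is a site of nuclear receptors such as PPAR gamma with RXR, and 16.3% of 32851 promoters of the same length hold it. AGGAAG is a core bound by ETS factors, many of which act in endothelium, and 35.4% hold it. The promoter of Car4 held neither, and none of those printed held a direct repeat of AGGTCA with 1 base between (0.0396% of promoters). The matches in Timp4, Aqp7 and Cd36 are on the reverse strand, Aqp7 is shown at the start site with 2 matches, and the 2 matches in Rbp7 overlap.
Timp4, chr6:115252156-115252455: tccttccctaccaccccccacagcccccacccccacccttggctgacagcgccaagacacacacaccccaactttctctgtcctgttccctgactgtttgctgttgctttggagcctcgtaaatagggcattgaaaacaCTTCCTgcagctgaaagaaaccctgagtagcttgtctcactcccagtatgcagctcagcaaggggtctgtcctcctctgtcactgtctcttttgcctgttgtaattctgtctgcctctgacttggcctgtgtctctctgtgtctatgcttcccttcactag
Aqp7, chr4:41047913-41048212: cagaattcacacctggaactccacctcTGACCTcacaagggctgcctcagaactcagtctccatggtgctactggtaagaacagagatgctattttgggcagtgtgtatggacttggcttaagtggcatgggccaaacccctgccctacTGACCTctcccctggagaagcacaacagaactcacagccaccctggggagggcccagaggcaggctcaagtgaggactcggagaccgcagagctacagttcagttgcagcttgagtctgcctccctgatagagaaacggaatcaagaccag
Rbp7, chr4:149454919-149455218: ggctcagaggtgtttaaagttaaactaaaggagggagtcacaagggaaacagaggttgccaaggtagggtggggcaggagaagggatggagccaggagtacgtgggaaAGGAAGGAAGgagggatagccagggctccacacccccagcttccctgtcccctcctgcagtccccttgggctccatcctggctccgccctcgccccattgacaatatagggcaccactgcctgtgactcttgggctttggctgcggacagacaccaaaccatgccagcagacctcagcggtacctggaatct
Cd36, chr5:17835847-17836146: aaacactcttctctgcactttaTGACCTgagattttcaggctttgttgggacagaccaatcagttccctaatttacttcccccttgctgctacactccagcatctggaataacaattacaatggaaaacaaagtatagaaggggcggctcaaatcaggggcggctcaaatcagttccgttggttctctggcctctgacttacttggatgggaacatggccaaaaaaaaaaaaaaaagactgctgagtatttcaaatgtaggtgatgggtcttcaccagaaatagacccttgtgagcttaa

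Across all genes most ratios between ages were small. Of 9707 genes with at least 50 UMIs in members, 7958 (82.0%) lay within 0.5 of 0 on the log2 scale. At least 2-fold higher at P1 were 149 genes (1.53%) and at least 2-fold higher at P7 were 264 (2.72%), together 4.25%, the background against which each count of a gene list is to be read. The median of all genes was -0.11, and list medians are to be read against it. Scaled by the median ratio instead of the total, 195 genes were at least 2-fold higher at P1 and 200 at P7. Genes on the X chromosome (308 genes) had a median of -0.08 and autosomal genes one of -0.11.

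**Figure D2:**
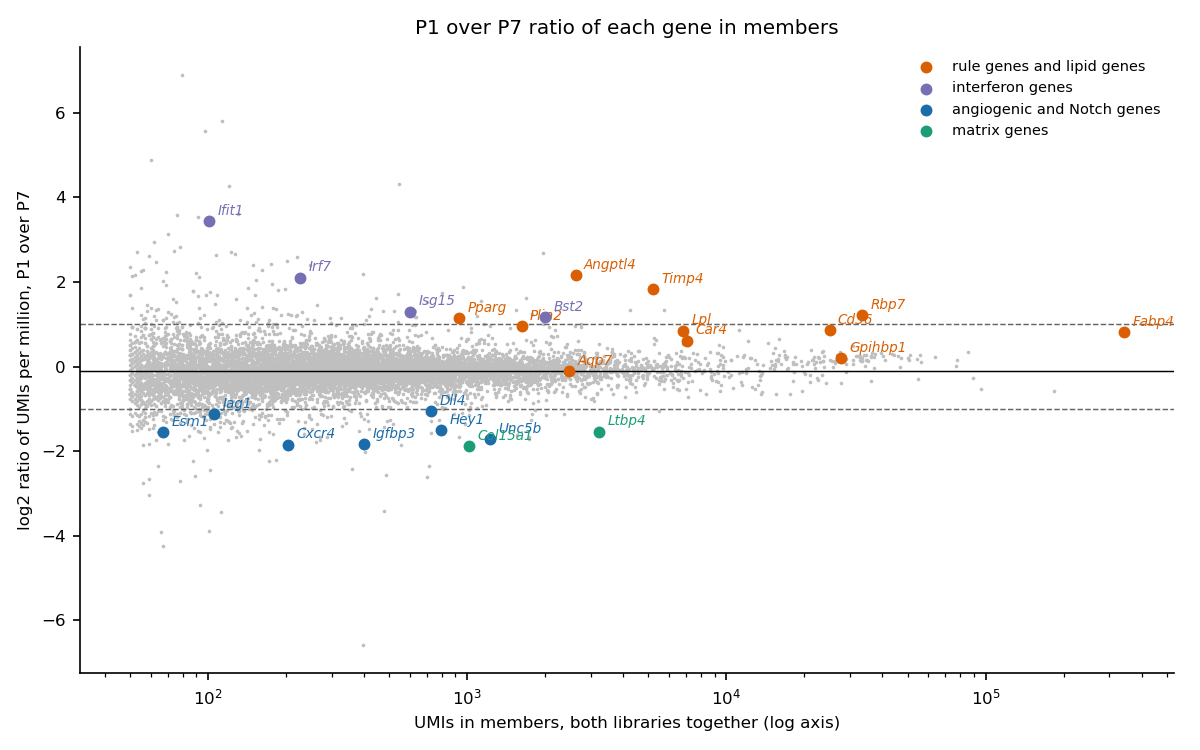
Log2 ratio of P1 over P7 in members for each gene with at least 50 UMIs, against its UMIs in both libraries together (log axis). The solid line is the median of all genes (-0.11), dashed lines mark 2-fold, and X and Y genes that follow sex are left out. The lipid genes Fabp4 (0.82) and Angptl4 (2.16) lie above the line, Unc5b (-1.72) and Col15a1 (-1.88) below it.

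Of the genes of lipid uptake, carriage and regulation, Angptl4 and Pparg were 2-fold higher at P1 in members, and Pparg was at 0.98, just under 2-fold, after thinning each cell to 2000 UMIs. Angptl4 (chr17:33773750-33781830, minus strand), a secreted inhibitor of lipoprotein lipase, stood at 356 CPM at P1 (342 to 371) and 79.6 CPM at P7 (71.7 to 88.1), and its log2 ratio was 2.16 (2.00 to 2.32). It was detected in 81.4% of members at P1 and 33.8% at P7, or in 46.2% and 14.1% after thinning to 2000 UMIs. Fibroblasts, which also had the gene, gave 15.6% and 8.86% after thinning. Lymphocytes, which should lack it, gave 1.28% and 2.53%, at unthinned median depths of 6838.5 and 5254.5 UMIs.

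Among the enzymes and carriers, Lpl (chr8:68880491-68907448, plus strand), lipoprotein lipase, stood at 762 CPM at P1 (741 to 784) and 423 CPM at P7 (404 to 442), and its log2 ratio was 0.85 (0.78 to 0.93). Cd36 stood at 2809.6 CPM at P1 (2768 to 2851) and 1554 CPM at P7 (1518 to 1589.7), and its log2 ratio was 0.85 (0.82 to 0.89). Fabp4 (chr3:10204088-10208576, minus strand), the most abundant of the lipid genes, stood at 38314 and 21637 CPM, a log2 ratio of 0.82 (0.81 to 0.83). None of these 3 reached 2-fold. Gpihbp1 was closer between ages, with 2665 and 2322 CPM and a log2 ratio of 0.20 (0.16 to 0.23). Fabp3, the binding protein of heart muscle, was lower at P1, with 103 and 174 CPM (-0.75, -0.90 to -0.60), and cardiomyocyte markers in members, given below, were also lower at P1. The direction of Fabp3 was not kept throughout, as its log2 ratio ranged from -1.07 to 0.22 over 17 alternatives.

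The regulators differed from one another. Pparg (chr6:115360951-115490399, plus strand), which encodes PPAR gamma, stood at 111 CPM at P1 (103 to 119) and 49.9 CPM at P7 (43.7 to 56.7), and its log2 ratio was 1.15 (0.94 to 1.37). Plin2, which coats lipid droplets, had a log2 ratio of 0.95 (0.80 to 1.11). Meox2 was also higher at P1, with 254 and 174 CPM (0.55, 0.42 to 0.67), whereas its partner Tcf15 was lower at P1, with 751 and 970.1 CPM (-0.37, -0.43 to -0.31). Counted as lists, 2 of 8 measured lipid regulators (Pparg and Angptl4), 0 of 6 uptake genes and 0 of 9 carriers were at least 2-fold higher at P1, and none was 2-fold higher at P7. The list medians were 0.31, 0.12 and -0.13. None of 15 genes of fatty acid oxidation was at 2-fold, and their median was 0.18.

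Cd36, Lpl, Fabp4, Gpihbp1, Pparg and Angptl4 had lower log2 ratios in the other cells of the endothelial gate than in members. The log2 ratio there was 0.03 for Cd36, -0.32 for Lpl, -0.24 for Fabp4, -0.61 for Gpihbp1, 0.02 for Pparg and 0.88 for Angptl4. The log2 ratio in members minus that in other cells was 1.06 for Fabp4 (1.05 to 1.07), 1.17 for Lpl (1.07 to 1.26), 1.13 for Pparg (0.86 to 1.41) and 1.28 for Angptl4 (1.09 to 1.47). The make-up of the other cells differed between ages. Of 1094 at P1, 303 were in the Aplnr/Apln gate and 267 in the endocardial gate, and of 2773 at P7, 1517 and 91. Fabp4 stood at 19608 and 2287 CPM in these gates at P1. Ratios in other cells, here and throughout, thus hold both make-up and level, which were not told apart. In the Aplnr/Apln gate, the most like cells, the log2 ratios were 0.27 for Cd36, 0.03 for Lpl, 0.09 for Fabp4 and 1.12 for Angptl4. The rule separates these groups with genes that themselves differ between ages, so the whole endothelial gate was also summed without it. There the log2 ratio was 1.55 for Angptl4 (1.47 to 1.63), 0.74 for Pparg (0.62 to 0.86), 0.55 for Cd36 (0.53 to 0.57) and 0.33 for Fabp4 (0.32 to 0.34), while Gpihbp1 had -0.19 and Tcf15 -0.52.

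**Figure D3:**
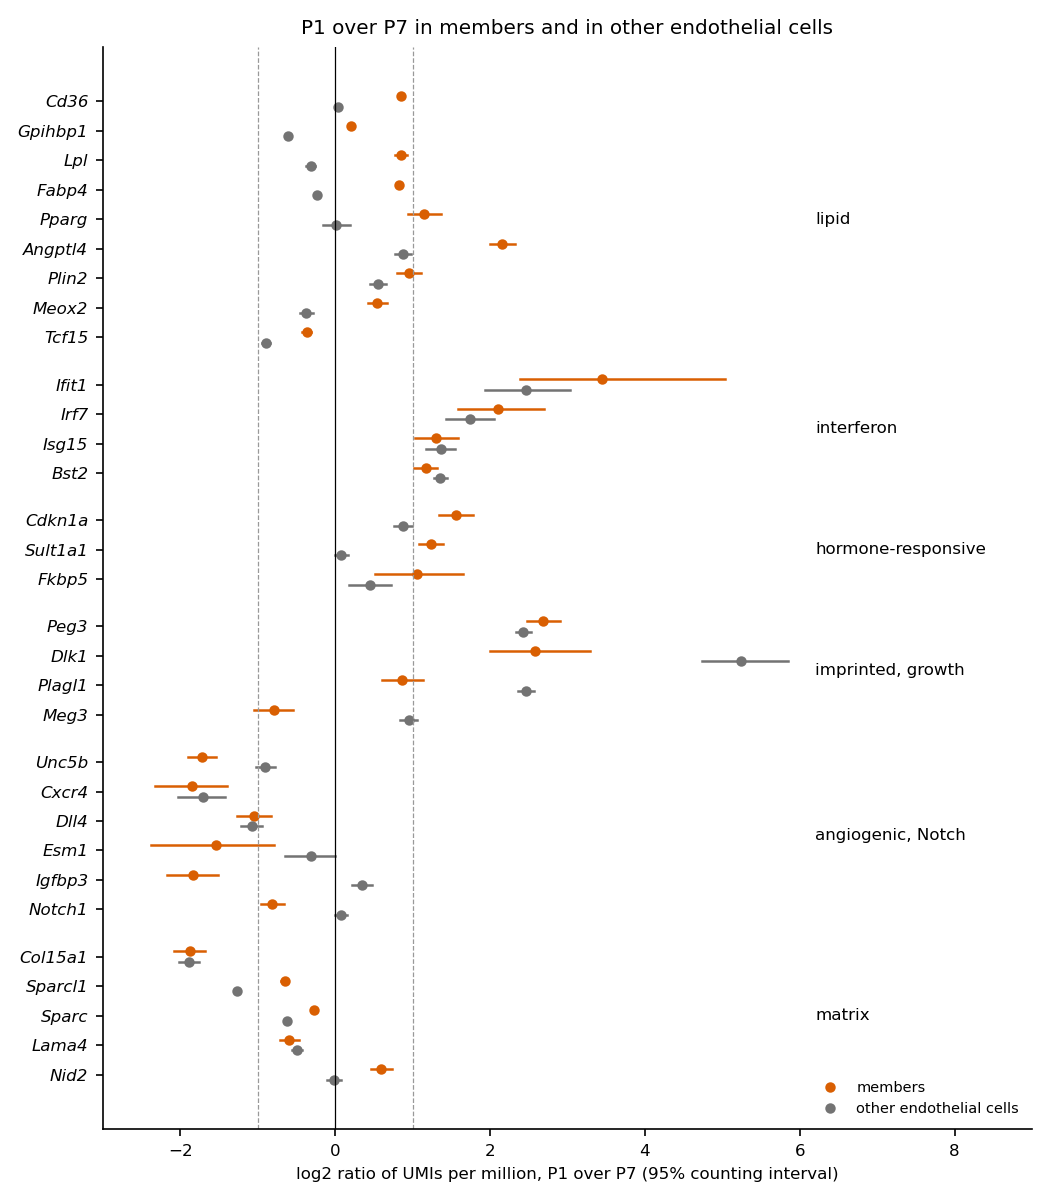
Log2 ratio of P1 over P7 for named genes of 6 groups in members (orange) and in the other cells of the endothelial gate (grey). Bars are 95% counting intervals and dashed lines mark 2-fold. Fabp4 had 0.82 in members and -0.24 in other cells, whereas Isg15 (1.30 and 1.36) and Col15a1 (-1.88 in both) were alike.

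Lipid genes also varied with how many rule genes a member had. Members with 2, 3 and 4 of the rule genes detected numbered 72, 199 and 357 at P1 and 106, 281 and 235 at P7, so that 56.8% of members had all 4 at P1 and 37.8% at P7. Median depth went the same way, from 4795.5 to 9868 UMIs at P1 and from 3361.5 to 8211 at P7. Cd36 stood at 1766, 2624 and 3016 CPM in these groups at P1 and at 1425, 1452 and 1677 CPM at P7. Angptl4 stood at 212, 303 and 397 CPM at P1, and at 53.9, 68.1 and 95.8 CPM at P7. Its log2 ratio between ages was 1.95, 2.15 and 2.05 at 2, 3 and 4 rule genes. For Fabp4 it was 0.32, 0.67 and 0.89, and for Pparg 0.49, 1.24 and 1.12. The number of rule genes chose the members and rose with depth, so these values are a description.

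**Figure D4:**
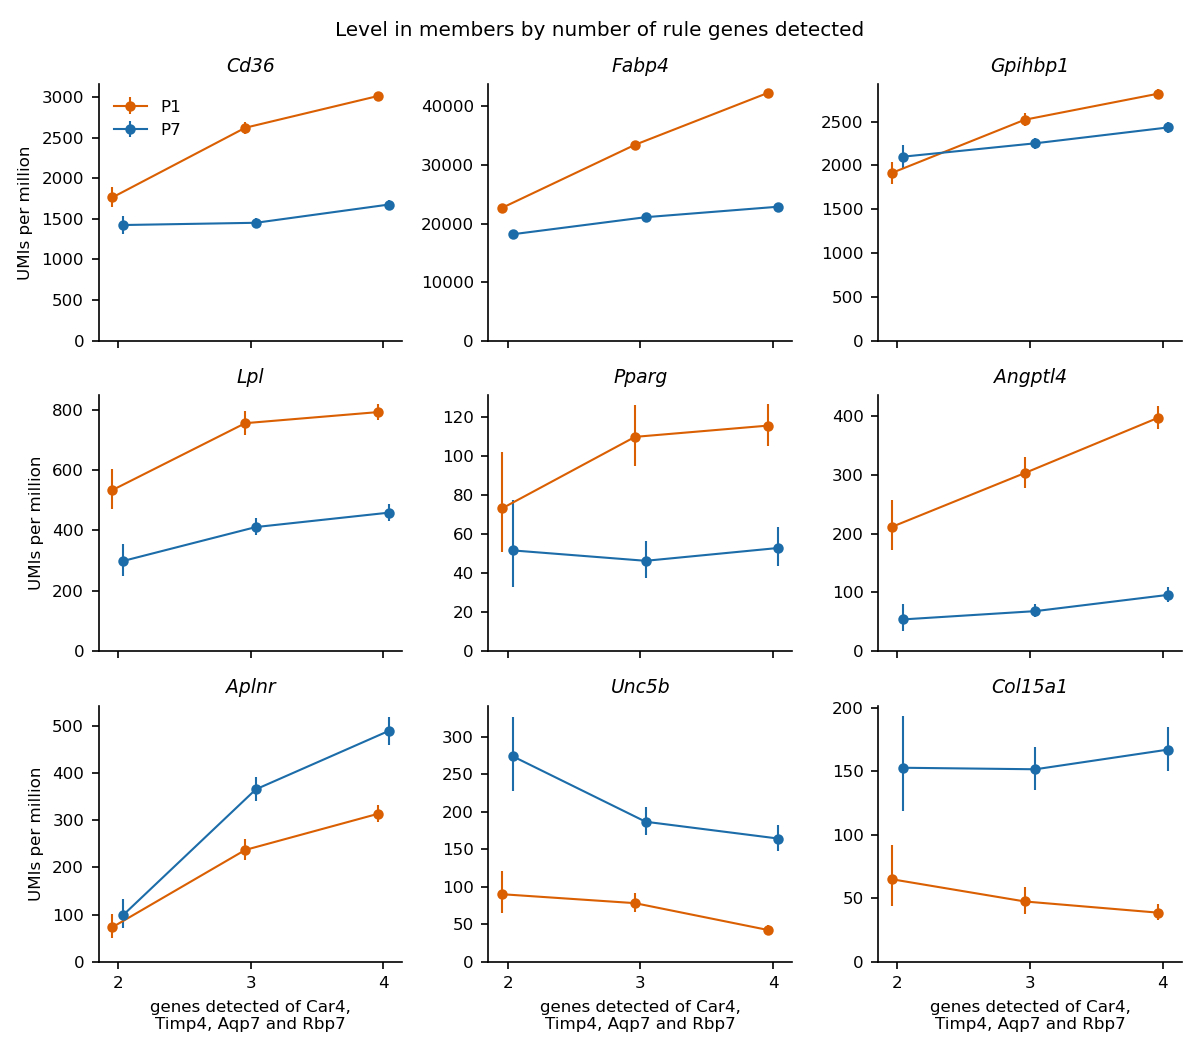
Level (CPM) of 9 genes in members with 2, 3 or 4 rule genes detected, at P1 (orange) and P7 (blue), with 95% Poisson intervals. Angptl4 is higher at P1, and Unc5b and Col15a1 higher at P7, at each number, while Gpihbp1 at 2 rule genes is 1914 CPM at P1 and 2099 CPM at P7.

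The cells on either side of the limits of the rule were compared by the same levels. Cells of the gate with 2 or more rule genes that were tied with another list (208 at P1, 644 at P7) had 2022 and 1355 CPM of Cd36 and 229.9 and 72.4 CPM of Angptl4. Members ahead by 1 gene (306 and 426) had 2606 and 1491 CPM of Cd36, and members ahead by 2 or more (322 and 196) had 3039 and 1716 CPM. Aplnr, the apelin receptor and a gene of a competing list, was present in 66.9% of members at P1 and 67.5% at P7, against 1.60% and 2.94% of fibroblasts. Membership thus did not mean absence of the genes of the other capillary type.

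Genes of the competing capillary list were mostly lower at P1 in members, and as they entered the rule their values describe the chosen cells. C1qtnf9, a secreted relative of adiponectin, stood at 20.1 CPM at P1 (16.8 to 24.0) and 122 CPM at P7 (113 to 133), and its log2 ratio was -2.60 (-2.89 to -2.32), beside -2.75 in other endothelial cells. Aplnr had a log2 ratio of -0.54 and Pcdh17, a protocadherin, one of -0.29. Apln, the ligand of Aplnr, was higher at P1, at 51.9 and 36.9 CPM (0.49, 0.22 to 0.77), but lower at P1 in other cells of the gate (-0.71). Without members carrying 3 or more UMIs of other cell types Apln was at -0.76, the opposite direction, on 68 UMIs. Hey1, a target of Notch in the arterial list, stood at 40.4 and 115 CPM (-1.51, -1.73 to -1.29).

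Several angiogenic and Notch genes outside the rule were higher at P7. Of 15 measured genes of sprouting endothelium, 5 were at least 2-fold higher at P7 (Unc5b, Cxcr4, Igfbp3, Esm1 and Dll4) and none at P1, with a median of -0.40. Dll4 was under 2-fold, at -0.94, without cycling members and after median ratio scaling, and Esm1, at -0.97, without the 6% deepest members. Unc5b, a netrin receptor, stood at 56.2 CPM at P1 (50.5 to 62.3) and 185 CPM at P7 (173 to 197), and its log2 ratio was -1.72 (-1.90 to -1.54). Cxcr4, a chemokine receptor of tip cells, stood at 8.72 and 31.6 CPM (-1.85, -2.33 to -1.40). Dll4, a Notch ligand of tip and arterial cells, stood at 45.2 and 93.6 CPM (-1.05, -1.27 to -0.83). Esm1 rested on 21 and 46 UMIs. In the Notch list 2 of 11 measured genes, Dll4 and Jag1, were 2-fold higher at P7, of which Jag1 was at -0.50 on 4 UMIs without members carrying 3 or more UMIs of other cell types, the median was -0.39, and Notch1 had a log2 ratio of -0.81 (-0.96 to -0.66).

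Some of these genes had like values in the rest of the endothelium. The log2 ratio was -1.71 for Cxcr4 and -1.08 for Dll4 in other cells of the gate, and the intervals of the differences held 0. Unc5b had -0.90 there, a difference of -0.82 (-1.03 to -0.60), and Notch1 had 0.07, a difference of -0.88 (-1.05 to -0.71). Igfbp3, a binding protein of insulin-like growth factors, had -1.83 in members and 0.35 in other cells. The list of VEGF and TIE receptors and ligands had none of 12 genes at 2-fold and a median of -0.41. Kdr, the main VEGF receptor, was nearly level at 695 and 734 CPM (-0.08).

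Col15a1, a basement membrane collagen, stood at 43.1 CPM at P1 (38.2 to 48.6) and 159 CPM at P7 (148 to 171), and its log2 ratio was -1.88 (-2.09 to -1.68). It was the 1 gene of 14 in the basement membrane list at 2-fold, and the list median was -0.29. Sparcl1 had a log2 ratio of -0.65, Lama4, a laminin chain, one of -0.59 and Sparc one of -0.28, while Nid2, which links laminin to collagen, was higher at P1 (0.59, 0.46 to 0.73). Ltbp4, which binds latent TGF beta and was counted among arterial genes, stood at 162 and 469.9 CPM (-1.54, -1.65 to -1.43). In fibroblasts Col15a1 stood at 558 and 585 CPM, and fibroblast markers in members were higher at P7. Without members carrying 3 or more UMIs of cardiomyocyte, fibroblast, mural and myeloid genes the log2 ratio was -2.31 for Col15a1 on 78 UMIs, -1.64 for Ltbp4, -0.89 for Lama4, -0.77 for Sparcl1, -0.38 for Sparc and 0.34 for Nid2.

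Among channels and exchange enzymes, Aqp1, the water channel of capillaries, was lower at P1 at 203 and 335 CPM (-0.72, -0.83 to -0.62). The carbonic anhydrases Car7 (-1.66) and Car8 (-1.13) were at least 2-fold higher at P7 and Car2 (1.47, on 46 and 12 UMIs) at P1, of 5 measured genes with a median of -0.72. Car8 was under 2-fold after thinning, at -0.80, and Car2 was under 2-fold, at 0.73, in the lowest of its 17 alternatives. Among 9 measured solute carriers (median 0.08), Slc2a1, the glucose transporter GLUT1 (145 and 46 UMIs, 1.22), and Slco2a1, a prostaglandin transporter (38.7 and 17.5 CPM, 1.14), were 2-fold higher at P1, and Slco3a1 (-1.13) at P7. Without members carrying 3 or more UMIs of other cell types Slco2a1 was at 0.55, under 2-fold, and Slco3a1 turned to 0.40, on 31 and 23 UMIs. In the glycolysis list Ldhb, a lactate dehydrogenase subunit, was higher at P1 (188 and 74.4 CPM, 1.34) and Pfkm lower (37 and 56 UMIs, -1.02). The median of its 14 genes was -0.03, and 0.08 after median ratio scaling. Over 17 alternatives Pfkm ranged from -1.72 to -0.88, so it was not always at 2-fold.

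Several interferon-responsive genes were higher at P1. Of 17 measured genes of antigen presentation and interferon response (median 0.18), 4 were at least 2-fold higher at P1, Ifit1, Irf7, Isg15 and Bst2, and 1 at P7, H2-Q7, a class I gene of a family with near-identical copies. Bst2 was named after its value was seen. Isg15, a ubiquitin-like protein, stood at 73.3 CPM at P1 (66.8 to 80.3) and 29.6 CPM at P7 (24.9 to 35.0), and its log2 ratio was 1.30 (1.03 to 1.59). Irf7, a transcription factor of the interferon response, stood at 30.6 and 7.04 CPM (2.10, 1.58 to 2.70), and Ifit1 rested on 95 and 6 UMIs (3.45, 2.38 to 5.04). Bst2, an antiviral membrane protein, stood at 238 and 106 CPM (1.17, 1.02 to 1.32). The log2 ratios in other endothelial cells were 1.36 for Isg15, 1.74 for Irf7 and 1.36 for Bst2. Without members carrying 3 or more UMIs of the cardiomyocyte, fibroblast, mural and myeloid genes described below, which left 94 cells at P1 and 41 at P7, Irf7 had -0.64 on 13 UMIs and Isg15 0.38. No gene of MHC class II among 6 was measured in members.

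Several genes known to respond to glucocorticoid or to metals were higher at P1. Of 9 measured, 4 were at least 2-fold higher at P1 and none at P7, with a median of 0.77. Zbtb16, a transcription factor induced by glucocorticoid, had 96 UMIs at P1 and 1 at P7 (5.58, 3.65 to 11.48). Cdkn1a, an inhibitor of the cell cycle, stood at 143 CPM at P1 (134 to 153) and 48.6 CPM at P7 (42.5 to 55.4), and its log2 ratio was 1.56 (1.35 to 1.77). Sult1a1, a sulfotransferase, stood at 215 and 91.3 CPM (1.24, 1.08 to 1.40), and Fkbp5, a co-chaperone of the glucocorticoid receptor, at 16.5 and 7.89 CPM (1.05, 0.51 to 1.65). In other endothelial cells Sult1a1 had 0.08 (-0.01 to 0.17) and Cdkn1a 0.88, and Zbtb16 had 6.98. Zbtb16 was found in 12.3% and 0.161% of members and in 15.2% and 0.865% of fibroblasts. After thinning Fkbp5 was at 0.31, and Sult1a1 was at 0.93, under 2-fold, in the lowest of its 17 alternatives.

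Growth and imprinted genes had 2 of 14 at least 2-fold higher at P1 and none at P7. Peg3, a paternally expressed zinc finger gene, stood at 279 CPM at P1 (266 to 292) and 43.3 CPM at P7 (37.5 to 49.7), and its log2 ratio was 2.68 (2.48 to 2.90), beside 2.43 in other endothelial cells. Dlk1, a relative of Notch ligands, stood at 31.2 and 5.12 CPM (2.58), against 5.24 in other endothelial cells, and had 0.38 when cycling members were left out. Plagl1, a zinc finger transcription factor, had 0.86 in members and 2.46 in other cells, and Meg3, a maternally expressed RNA, had -0.79 and 0.95. In members Meg3 was at -0.27 after thinning. It turned to 0.16, on 6 UMIs, without members carrying 3 or more UMIs of other cell types. The list median was 0.27 in members, 0.39 in the Aplnr/Apln gate and 0.90 in all other endothelial cells.

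None of 20 proliferation genes reached 2-fold between ages and their median was 0.05. The median was 0.97 over the 7 genes still measured without members carrying 3 or more UMIs of other cell types, with Top2a at 1.51 on 77 UMIs. Members with at least 3 UMIs of these genes were 61.9% at P1 (58.0 to 65.8%) and 46.9% at P7 (43.0 to 51.0%), but after thinning to 2000 UMIs they were 19.2% (16.1 to 22.6%) and 13.5% (10.8 to 16.5%). In the Aplnr/Apln gate the thinned shares were 36.1% and 27.6%. Hmgb2, a chromatin protein abundant in dividing cells, stood at 535 and 519.8 CPM in members, with a log2 ratio of 0.04 (-0.03 to 0.12). In the members without those UMIs the log2 ratio was 2.42 for Angptl4 and 0.91 for Fabp4.

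Of the endocardial genes in the rule, Npr3, a natriuretic peptide receptor (44 and 6 UMIs, 2.35), and Plvap, a protein of endothelial diaphragms (52 and 17 UMIs, 1.16), were 2-fold higher at P1 in members, which describes the chosen cells. Plvap was at 0.05, on 10 UMIs, without members carrying 3 or more UMIs of other cell types. Several further groups had no gene at 2-fold. These were the list of oxygen-sensing genes (8 measured, median 0.04), the general endothelial genes (20, median -0.09, or 0.02 after median ratio scaling), the flow and quiescence genes with Klf2 and Cav1 (15, median -0.12), immediate early genes (19, median 0.14), Ly6 surface genes (5, median -0.30), endocardial genes outside the rule (5, median -0.12) and lymphatic genes (1, at -0.44). Klf2, a flow-induced transcription factor, had a log2 ratio of -0.53 in members and -0.53 in other endothelial cells. Egr1, an immediate early transcription factor, had 0.95, and Cldn5, the endothelial tight junction claudin, 0.60, against -0.41 in other endothelial cells. Of the guidance genes 1 of 8, Unc5b, was 2-fold higher at P7 (median -0.37), as were 2 of 7 arterial genes, Dll4 and Ltbp4 (median -0.75), and 1 of 4 venous genes, Vcam1 (-1.10, median -0.22). Vcam1 was at 0.40 after thinning and at 0.0039 without the 6% deepest members.

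The largest ratios towards P1 in members, apart from sex genes and predicted genes, mostly belonged to genes at low levels. Iqcg had 112 and 1 UMIs, Gpr160, an orphan receptor, 116 and 4, and Gdpd3, a phosphodiesterase of lysophospholipids, 524 and 19. The level of Gdpd3 was 83.1 CPM at P1 (76.2 to 90.5) and 4.05 CPM at P7 (2.44 to 6.33), and its log2 ratio was 4.32 (3.70 to 5.10), beside 2.58 in other endothelial cells. Igf2bp1, an RNA binding protein of fetal tissue, had 72 and 4 UMIs, and Rnaset2b, which has a near-identical copy and is uncertain, 86 and 5. Sftpc, a lung surfactant gene, had 79 UMIs at P1 and 0 at P7, where 3 UMIs would be 0.640 CPM, and it stood at 12.5 CPM in members and 7.87 CPM in fibroblasts at P1.

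Towards P7, predicted genes left out, large ratios included those of AW112010 (53 and 424 UMIs, -3.42), Cmklr1, the receptor of chemerin (4 and 63 UMIs, -4.25), Clec3b, a plasminogen binding protein (12 and 100 UMIs, -3.43), and S100a4, a calcium binding protein (11 and 82 UMIs, -3.27). The ratio of S100a4 was -0.08 without the 6% deepest members. Htra1, a secreted protease, stood at 14.3 CPM at P1 (11.5 to 17.5) and 84.7 CPM at P7 (76.6 to 93.4), and its log2 ratio was -2.56 (-2.92 to -2.23) against -1.16 in other endothelial cells. In fibroblasts Clec3b stood at 219 and 849 CPM and S100a4 at 44.4 and 77.5 CPM, above their levels in members at both ages.

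Compared with the other cells of the gate, members were poor in genes of large vessels and endocardium. This contrast is between the chosen cells and those not chosen, and its values are a description. Of 10783 genes with at least 50 UMIs, the rule genes left out, 15 (0.139%) were at least 2-fold higher in members in both libraries and 241 (2.23%) at least 2-fold lower. The counts were 4 and 68 after thinning, and 4 and 132 with cycling cells left out of the whole gate. Cycling means at least 3 UMIs of the proliferation genes throughout. That share fell with thinning, so leaving out cycling cells also leaves out deep cells. The endocardial list had 7 of 11 genes lower, with median log2 ratios of members over other cells of -2.66 at P1 and -1.93 at P7, and the arterial list 6 of 10, with -1.89 and -1.35. The venous list had 3 of 8 measured genes lower, with medians of -2.12 and -0.79. Proliferation genes had none at 2-fold and medians of -0.45 and -0.48, beside -0.12 and -0.05 for all genes.

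**Figure D5:**
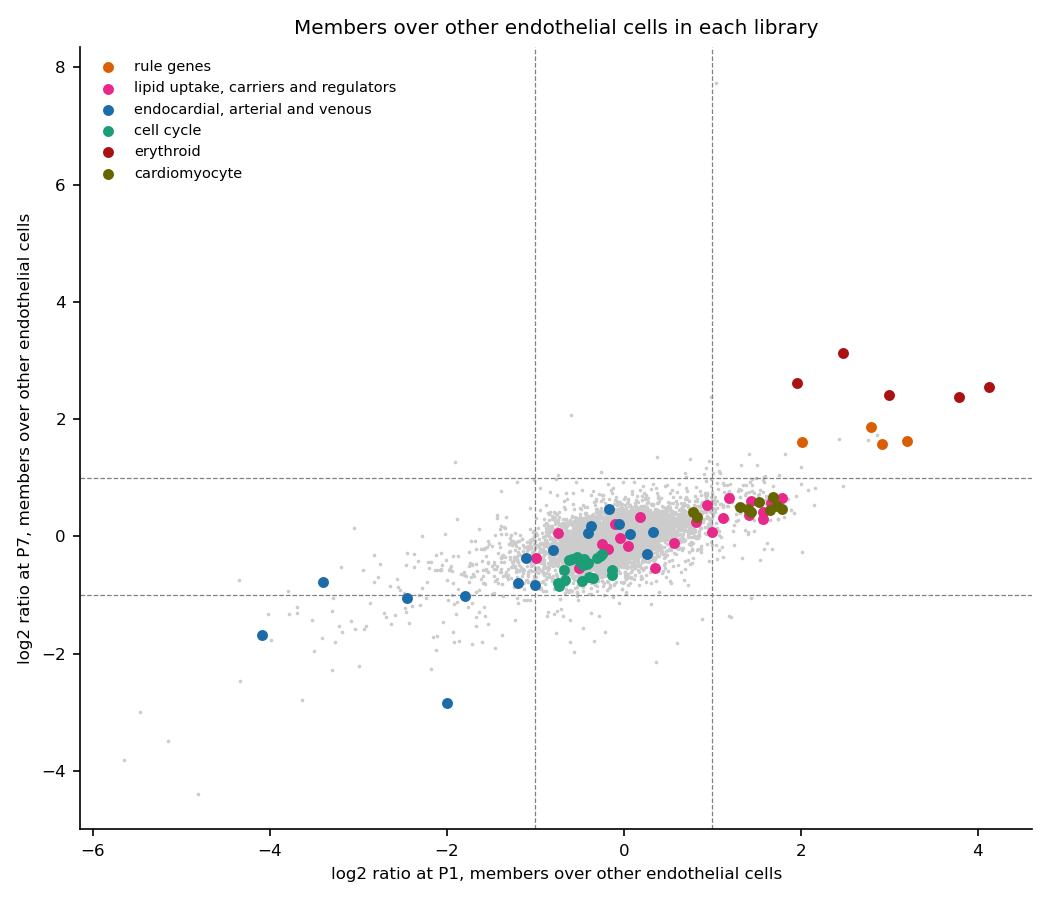
Log2 ratio of members over other cells of the endothelial gate at P1 (x axis) and P7 (y axis) for genes with at least 50 UMIs in members, with dashed lines at 2-fold. Rule genes are high because they chose the cells. Medians were -2.66 and -1.93 for endocardial genes and 2.99 and 2.55 for erythroid genes. These medians are over genes with at least 50 UMIs in members and other cells together in each library. That set held 11 endocardial genes, of which 5 had enough UMIs in members to be drawn.

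Pltp, a phospholipid transfer protein, was among the 15 genes higher in members. It stood at 216 CPM in members and 76.2 CPM in other cells at P1 and at 361 and 155 CPM at P7, log2 ratios of members over other cells of 1.50 (1.38 to 1.62) and 1.22 (1.14 to 1.30). Thrsp, a nuclear protein of lipogenesis, had 1.82 and 1.41, Cldn15, a claudin that forms ion pores, 2.00 and 1.18, and Krt19, a keratin, 1.08 and 1.12. Cldn15 was also higher at P1 than at P7 in members, at 54.1 and 11.7 CPM (2.19). At P1 members were past 2-fold over other cells for Fabp4 (1.42), Lpl (1.58) and Pparg (1.79), but at P7 the values were 0.36, 0.41 and 0.66. Set against the Aplnr/Apln gate alone, 42 genes were at least 2-fold higher and 53 lower in both libraries.

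RNA of other cell types was present in members and differed between ages. Cardiomyocyte genes (13 of 13 detected) summed to 815 CPM at P1, led by Tnnt2, and 1075 CPM at P7, led by Myl3, against 289 and 752 CPM in other endothelial cells. Fibroblast genes (8 of 8) summed to 355 and 879 CPM, led by Col3a1, against 762 and 940 CPM, and 5 of 8 were at least 2-fold higher at P7 in members. Mural genes (10 of 10) summed to 375 and 587 CPM, led by Acta2, against 265 and 850 CPM in other endothelial cells. Myeloid genes (12 of 12) summed to 52.7 CPM at P1, led by S100a9, and 32.2 CPM at P7, led by Lyz2. Of 8 lymphoid genes 2 were detected at P1 and 7 at P7, at 2.86 and 6.40 CPM, led by Cd79b and Trbc2, with Ms4a1 at 0 in both libraries and Cd3d, Cd3e, Cd3g, Trbc2 and Nkg7 at 0 at P1.

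Red cell genes summed to 3580 CPM at P1 and 4103 CPM at P7, led by Hbb-bs, against 620 and 719 CPM in other endothelial cells, and 5 of the 15 genes higher in members were of this list. At least 3 UMIs of the list were found in 13 members at P1 (2.07%) and 46 at P7 (7.40%). Epithelial and mesothelial genes summed to 82.8 and 95.8 CPM, led by Wt1, while Epcam was at 0 in both libraries and Sftpc and Cldn18 at 0 at P7. Wt1 stood at 64.2 and 72.9 CPM in members and 58.0 and 69.4 CPM in other endothelial cells.

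Markers of lung endothelium, 10 of 10 detected, summed to 376 CPM in members at P1 and 256 CPM at P7, led by Ednrb, against 655 and 252 CPM in other endothelial cells, and 1 of 7 measured, Scn7a (2.74), was 2-fold higher at P1 (median 0.42). Foxf1 had 36 UMIs at P1 and 2 at P7 in members, at 5.71 CPM against 59.9 CPM in other endothelial cells at P1, and was found in 0.955% of P1 members. Without members with a UMI of Foxf1 or Hoxa5, 67 of 69 named genes at 2-fold between ages kept it, and Scn7a turned to -1.49. Without members carrying 3 or more UMIs of cardiomyocyte, fibroblast, mural and myeloid genes, which left 94 cells at P1 and 41 at P7, the log2 ratio was 1.96 for Angptl4, 0.86 for Fabp4, 0.86 for Cd36, 0.52 for Lpl and -1.61 for Unc5b. Under this filter 54 of 67 named genes at 2-fold stayed so, but 124 of 180 named genes moved past their counting interval.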

How the data were processed

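Hearts at P1 and P7 were profiled with the 10x Genomics 3 prime kit, and the authors deposited filtered matrices of UMI counts made, per the labels, with Cell Ranger 3.1.0 on mm10 (GRCm38). These raw counts were not normalised. Cells with 200 to 8000 genes and at most 20% mitochondrial UMIs were kept. The study's methods name both limits of genes but give no number for the mitochondrial share, so the 20% limit was set here. This removed 2253, 0 and 592 barcodes at P1 and 160, 1 and 405 at P7 for few genes, many genes and mitochondrial share. No doublet caller was run.

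UMIs were summed over members per library, CPM were taken over the sum, and genes with at least 50 UMIs were measured. CPM have exact Poisson intervals, ratios exact conditional binomial intervals with 0.5 counts added, and shares Clopper-Pearson intervals. The difference of 2 log2 ratios has an interval from summed variances of log counts. Called means at least 2-fold. The calculation of the interval was run on simulated counts of 9707 genes, 200 of them changed, and covered 95% of changed and 95.7% of unchanged genes. Those counts were Poisson draws, as the interval assumes, so this checks the calculation only. It cannot show coverage where UMIs are clustered within cells. Every cell was thinned to 2000 UMIs with a fixed seed (7) where stated. Python 3.11.15, numpy 2.4.6, scipy 1.17.1, pandas 2.3.3 and matplotlib 3.10.9 were used.

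The members and gene lists were chosen with earlier results of these data known. Genes were named by a rule: the rule genes and Cd36, in each list the 4 with the largest ratio and the one with most UMIs, the 12 with the largest ratio in each direction in members, and the 12 highest and 6 lowest in members over other cells. Predicted genes were left out, and not every gene that meets the rule is described. Markers at 0 or leading a marker list are named with that list.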

Additional observations from a re-analysis of the deposited data

Results flagged for a closer look

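The log2 ratio of P1 over P7 had opposite signs in members and in the other cells of the endothelial gate for 5 named genes that were at least 2-fold between ages in members and whose counting intervals left out 0 in both, and in each case the difference was not tested. Vcam1, an adhesion molecule, had -1.10 in members and 1.52 in other cells, but in members 0.40 after thinning and 0.0039 without the 6% deepest members. Kcnj8, a potassium channel subunit of mural cells, had 1.23 and -0.23, on 168 and 53 UMIs in members, and in members it was at -0.39 after thinning. It is itself a gene of the mural list by which members with UMIs of other cell types were left out, and 1 UMI of it remained there. Dcn, a proteoglycan of fibroblasts, had -1.61 and 0.19, and Igfbp3 had -1.83 and 0.35. Msln, a mesothelial surface protein, had -3.91 and 2.79, on 5 and 61 UMIs in members, and was at 1.45 there without the deepest members. Named genes under 2-fold in members, such as Fabp4, Lpl, Gpihbp1 and Apln, also had opposite signs.

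Barcodes above the mitochondrial limit were not used. Among them 18 at P1 and 2 at P7 met every other part of the rule for members.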

How the results depend on the processing

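No paired analysis was possible because each age has 1 library, and no library could be left out. Of 69 named genes at least 2-fold between ages, between 60 and 69 stayed so under 14 of the 17 alternatives, and 54 of 67 did without members carrying UMIs of other cell types, while another minimum of UMIs cannot change a ratio. The log2 ratio of P1 over P7 ranged over the alternatives from 1.96 to 2.51 for Angptl4, 0.74 to 0.93 for Fabp4, 0.84 to 0.96 for Cd36, 0.98 to 1.45 for Pparg, 0.52 to 0.96 for Lpl and -1.81 to -1.37 for Unc5b. Shares of members at P1 and P7 were 32.3% and 15.2% with at least 3 rule genes and 46.5% and 35.2% with ties allowed. They were 17.9% and 10.6% without cycling members and 7.91% and 1.46% without members with 3 or more UMIs of other cell types, lower by construction because such cells were left out of members only. With the same cells left out of the whole gate, an alternative chosen after seeing the data, they were 38.5% and 22.01%, and 36.6% and 16.5%. Genes at least 2-fold higher at P1 and at P7 were 70 and 98 of 5584 after thinning, 59 and 44 of 2542 without other cell types, 96 and 134 of 6863 without cycling members, 273 and 460 with at least 20 UMIs, and 52 and 76 with at least 200 UMIs. Fewer UMIs or another minimum changed the number of genes measured in these counts. Genes higher and lower in members than in other cells in both libraries were 15 and 241, against 4 and 68 after thinning and 42 and 53 against the Aplnr/Apln gate. Leaving cells out of members only, which sets unlike cells against each other, gave 44 and 569 without cycling members, 73 higher without other cell types and 376 lower without the 6% deepest. Left out of the whole gate, they gave 4 and 132, 3 and 22 of 3721 measured, and 9 and 220. Among the named genes at 2-fold, the ratio between ages turned for Vcam1 (0.40) and Kcnj8 (-0.39) after thinning, for Scn7a without members with Foxf1 or Hoxa5 (-1.49), and for Vcam1 (0.0039) and Msln (1.45) without the deepest members. It also turned without other cell types for S100a9 (-0.62), Kcnj8 (-3.30), Slco3a1 (0.40), Irf7 (-0.64) and Tcf21 (1.09), on 23 UMIs or fewer, of which S100a9, Kcnj8 (1 UMI) and Tcf21 belong to the lists used to leave members out. Of 114 named genes under 2-fold, 14 changed sign after thinning, 15 without cycling members, 9 with ties allowed and 7 without the 6% deepest members. Of 113 such genes measured without other cell types, 24 changed sign, among them Apln (-0.76) and Ly6a (-0.42). The median of the proliferation list was 0.97 there. The cause was not tested. Depth limits genes of few UMIs: at 1 library per age no value speaks to the spread between hearts.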
